A study of Mus musculus with 24 samples.

Results

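The hemoglobin genes of adult mouse blood that were counted in these hippocampal libraries are the alpha globin genes Hba-a1 and Hba-a2 and the beta globin genes Hbb-bs and Hbb-bt, and they were followed here together with Alas2. These 5 genes, of 49568 gene symbols in the count files, were taken by their symbols in 22 of the 24 libraries, and all 5 were among the 18482 genes that passed the filter on low counts. They were chosen by their measured levels (CPM) and their housing contrast in these same libraries, so the levels and the differences between the groups are a description. Calls from fits across all genes are given for the members only as counts, beside the share of all genes called, and nothing is read from them.

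RNA was sequenced from the whole hippocampus of male mice aged 12 weeks. WT mice and mice homozygous for a kinase-dead knock-in of MSK1 (KD) were compared, both on a C57-Bl/6J background that had been backcrossed from C57-Bl/6n and both kept as separate homozygous lines. The mice were reared in standard housing (SH) or, from before birth, in large enriched cages with a running wheel and toys (EE), which gave 6 WT SH, 5 WT EE, 6 KD SH and 5 KD EE libraries. The knock-in is carried by every cell, and genotype and breeding line cannot be told apart. Libraries are named by the codes in their labels.

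The 22 libraries held between 8911999 and 56752074 counts on genes, so that 3 counts, the lowest number read here as a level, stood for a level of 0.0529 to 0.337 CPM, the count of a gene scaled to a library of 1e6 counts. The study used 17 of them and left out 12 (WT SH), 31B and 35A (WT EE), 2 (KD SH) and 9 (KD EE). By its methods, samples were dropped for a poor correlation with others of their group. The set of 17 was therefore picked on expression, and values are given for both sets where they differ. Codes with a letter occurred in the enriched groups alone, as 31B, 33A and 35A in WT EE and 32A and 36A in KD EE. Libraries 33B (WT EE) and 34B (KD EE) were not among the 22, and 54.1% and 56.0% of their read pairs fell outside single genes, against 14.05 to 18.6% in the others. Markers of hippocampal neurons were present in all 22 libraries, Prox1 of dentate granule cells at 81.5 to 136.6 CPM and Wfs1 of CA1 pyramidal cells at 136.2 to 224.0 CPM. Rps6ka5, which encodes MSK1, lay between 19.3 and 29.02 CPM. The knock-in is a point mutation that removes kinase activity, so this level does not check the genotype. Whether it alters the amount of RNA was not tested.

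Hemoglobin is built from pairs of alpha and beta chains, each of which holds a heme group that binds oxygen. Red cell precursors make the chains and their heme in large amounts, and in mammals the youngest circulating red cells have lost the nucleus but still carry globin RNA, so that brain tissue collected with its vessels brings some of this RNA with it. Globin RNA has also been described in some neurons and glia, and in whole tissue fewer cells of a type and less RNA per cell cannot be told apart. Alas2 is the red cell form of aminolevulinate synthase, which carries out the first step of heme synthesis, whereas Alas1 is the form used by other cells.

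In the GENCODE annotation of GRCm38, the alpha pair lay on chromosome 11 on the plus strand, Hba-a1 (ENSMUSG00000069919) at chr11:32283511-32284465 and Hba-a2 (ENSMUSG00000069917) at chr11:32296489-32297298. The beta pair lay on chromosome 7 on the minus strand, Hbb-bs (ENSMUSG00000052305) at chr7:103826534-103828096 and Hbb-bt (ENSMUSG00000073940) at chr7:103812524-103813996. Alas2 (ENSMUSG00000025270) lay on chromosome X on the plus strand at chrX:150547375-150570638. Within each pair the coding sequences were almost the same, and reads were counted only where they aligned to 1 place. The 429 coding bases of Hba-a1 and Hba-a2 differed at 1 base, C381T, and the 444 coding bases of Hbb-bs and Hbb-bt at 1 base, C417T, with positions counted from the A of the start codon and the base of the gene named first given first. Both bases were the last of their codon and lay in a coding exon, at chr11:32284343-32284343 in Hba-a1, chr11:32297160-32297160 in Hba-a2, chr7:103826692-103826692 in Hbb-bs and chr7:103812683-103812683 in Hbb-bt. The stretches around them, taken from the GENCODE transcripts and written along the transcript with the differing base in capitals, are shown because they are the only coding bases by which a read can be given to 1 gene of a pair:
Hba-a1: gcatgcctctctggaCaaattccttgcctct
Hba-a2: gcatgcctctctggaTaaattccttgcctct
Hbb-bs: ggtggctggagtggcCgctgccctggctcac
Hbb-bt: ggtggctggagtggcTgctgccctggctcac

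Of all windows of 150 bases in the longest coding transcript, 48.4% of those of Hba-a1 were found unchanged in Hba-a2 and 65.7% of those of Hba-a2 in Hba-a1. For the beta pair the shares were 58.7% of the windows of Hbb-bs and 50.7% of those of Hbb-bt. Counts within a pair are therefore lower than the RNA of the pair, and how they divide between the 2 genes depends on the bases that differ, coding and untranslated. The sum over the 4 globins is used below beside the single genes.

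The 4 globins rose and fell together across libraries and Alas2 followed them less closely, as is described below. The upstream sequences of the 5 genes are shown for the letters they share and do not share. All 5 were found in the RefSeq promoter table (GRCm38.p6), and the 250 bases before the RefSeq start are given 5′ to 3′ along the strand of the gene. Capitals mark, on either strand, the 4 motifs that are spelled out after the sequences, and where 2 of them adjoin, as in Hbb-bt and Alas2, the capitals run on. The 300 bases of the table for Hba-a1 and Hba-a2, set against each other with a shift of 3 bases, were the same at 297 of 297 positions, so Hba-a2 stands for both. The sequences lie at chr11:32296242-32296491 (Hba-a2, plus strand), chr7:103827929-103828178 (Hbb-bs, minus strand), chr7:103813924-103814173 (Hbb-bt, minus strand) and chrX:150547167-150547416 (Alas2, plus strand):
Hba-a2: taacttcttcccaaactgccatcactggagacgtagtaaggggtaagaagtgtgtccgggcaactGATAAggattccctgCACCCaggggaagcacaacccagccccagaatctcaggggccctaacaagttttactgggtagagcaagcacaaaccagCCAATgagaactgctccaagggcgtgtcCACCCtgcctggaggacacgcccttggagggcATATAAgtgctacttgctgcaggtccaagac
Hbb-bs: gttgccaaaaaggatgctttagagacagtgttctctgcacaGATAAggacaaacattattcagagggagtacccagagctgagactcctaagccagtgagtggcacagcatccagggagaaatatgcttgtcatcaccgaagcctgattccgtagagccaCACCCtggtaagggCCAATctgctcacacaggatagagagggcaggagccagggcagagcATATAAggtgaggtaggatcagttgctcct
Hbb-bt: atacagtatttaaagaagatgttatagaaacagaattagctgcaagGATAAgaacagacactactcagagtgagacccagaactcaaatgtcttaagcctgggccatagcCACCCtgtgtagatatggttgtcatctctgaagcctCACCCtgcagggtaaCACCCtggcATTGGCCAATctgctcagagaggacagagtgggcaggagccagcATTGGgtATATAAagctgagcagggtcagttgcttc
Alas2: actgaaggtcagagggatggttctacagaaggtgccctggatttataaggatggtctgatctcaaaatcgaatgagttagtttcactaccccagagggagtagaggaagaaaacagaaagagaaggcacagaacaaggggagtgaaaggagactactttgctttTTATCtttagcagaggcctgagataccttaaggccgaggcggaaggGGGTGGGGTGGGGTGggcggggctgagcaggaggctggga

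GATAA, the core letters bound by GATA factors, was found in all 5 upstream sequences and in 22.6% of the 32851 promoters of the table over the same 250 bases. CACCC, the letters bound by Klf factors, was found in all 5 as well, against 52.0% of the promoters. CCAAT stood in the 4 globin sequences and in 33.8% of the promoters, and ATATAA, a form of the TATA box, in the 4 globin sequences and in 9.10% of the promoters. ATATAA began 31 bases before the start of Hba-a2, 30 before that of Hbb-bs and 29 before that of Hbb-bt, whereas neither CCAAT nor ATATAA was found in the window of Alas2. The 300 bases of the table for Hbb-bs and Hbb-bt, set against each other with a shift of 1 base and no gaps, were the same at 168 of 299 positions. An inserted or lost base would put all bases beyond it out of step, so this number may understate their likeness. CCAAT, on the strand of the gene, began 76 bases before the start of Hbb-bs and 75 before that of Hbb-bt, but GATAA began 209 and 204 before. These matches describe the letters of the reference and not binding in these samples.

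Over the 22 libraries the 4 globins took 39147 of 718793084 counts on genes, or 54.5 CPM, and Alas2 took 1434 counts. The fewest globin counts were the 453 of library 9 and the most the 3908 of library 4, so every library held globin RNA well above 3 counts. Per kilobase of exon the mean level was 31.6 CPM for Hbb-bs, 22.7 for Hba-a1, 11.3 for Hba-a2, 6.83 for Hbb-bt and 0.813 for Alas2. Hbb-bs was the more abundant gene of the beta pair and Hba-a1 of the alpha pair, within the limit set by the shared windows. Alas2 stood lowest of the 5 on this scale.

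Summed over the 4 globins, the WT SH libraries lay between 35.6 and 48.3 CPM with a median of 45.8, a mean of 44.0 ± 4.80 (SD, n = 6). The WT EE libraries held 83.6 CPM (library 16), 124.4 (17), 34.4 (31B), 54.0 (33A) and 27.5 (35A), a mean of 64.8 ± 39.8 (SD, n = 5). The WT EE group thus held both the highest and the lowest value of all 22 libraries, and its range took in that of every other group. The KD SH libraries lay between 45.9 and 79.0 CPM with a median of 52.8, a mean of 58.3 ± 14.8 (SD, n = 6). The KD EE libraries held 57.0 CPM (library 7), 58.2 (8), 49.6 (9), 54.6 (32A) and 52.7 (36A), a mean of 54.4 ± 3.43 (SD, n = 5). KD EE and WT SH were the tight groups, and in KD SH libraries 2, 4 and 1 stood above the other 3, which lay between 45.9 and 46.3 CPM.

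**Figure D1:**
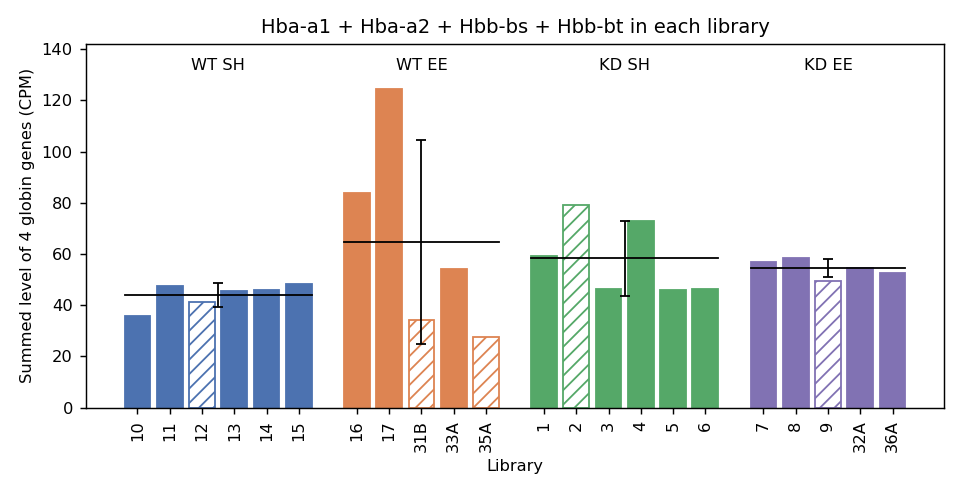
Bars give the summed level of Hba-a1, Hba-a2, Hbb-bs and Hbb-bt (CPM) in each of the 22 libraries, with hatched bars for the 5 libraries that the study left out and a black line with error bar for the mean and SD of each group. WT EE spans from 27.5 CPM (35A) to 124.4 CPM (17), whereas the 5 KD EE libraries sit between 49.6 and 58.2 CPM.

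On the log2 scale with 1 CPM added, the total was 0.34 higher in WT EE than in WT SH, with a pooled SD of 0.60 between the libraries of a group. The difference between KD EE and KD SH was -0.06 (pooled SD 0.27), that between WT SH and KD SH -0.37 (pooled SD 0.27) and that between WT EE and KD EE 0.04 (pooled SD 0.62). Of the 4 differences, only that between WT SH and KD SH was larger than the spread within groups. Without library 17 the difference between WT EE and WT SH was 0.06, and without library 35A it was 0.59.

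Hba-a1, an alpha chain gene, lay between 11.7 and 17.8 CPM in WT SH, with a median of 16.3. Its WT EE values were 26.9 CPM (16), 45.4 (17), 11.3 (31B), 17.8 (33A) and 8.44 (35A). Libraries 16 and 17 stood above every WT SH library, and 31B and 35A below all of them. In KD SH it lay between 11.6 and 25.5 CPM with a median of 18.4, and in KD EE it was 16.1 CPM (7), 19.3 (8), 18.2 (9), 18.2 (32A) and 17.04 (36A). The KD EE values fell inside the range of KD SH.

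Hba-a2, the second alpha chain gene, lay between 4.71 and 7.01 CPM in WT SH, with a median of 6.18. Its WT EE values were 11.3 CPM (16), 15.8 (17), 5.21 (31B), 7.91 (33A) and 3.68 (35A). As for Hba-a1, libraries 16 and 17 were the highest of all 22 but for the KD SH library 2, which at 11.5 CPM stood between them. In KD SH it lay between 5.89 and 11.5 CPM with a median of 7.83, and in KD EE it was 8.04 CPM (7), 7.84 (8), 7.12 (9), 6.90 (32A) and 7.30 (36A). All 5 KD EE values lay inside the KD SH range, and 4 of them lay above the highest WT SH value.

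Hbb-bs, the more abundant beta chain gene, lay between 16.4 and 20.5 CPM in WT SH, with a median of 19.8. Its WT EE values were 38.92 CPM (16), 51.8 (17), 14.99 (31B), 23.9 (33A) and 13.5 (35A). The order of the 5 libraries was that seen for both alpha genes. In KD SH it lay between 19.3 and 33.99 CPM with a median of 23.5, and in KD EE it was 27.7 CPM (7), 25.6 (8), 20.2 (9), 24.9 (32A) and 24.1 (36A). Library 9, the shallowest of the 22 with 8911999 counts, was the lowest of KD EE.

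Hbb-bt, the less abundant beta chain gene, lay between 2.88 and 3.802 CPM in WT SH, with a median of 3.42. Its WT EE values were 6.45 CPM (16), 11.5 (17), 2.82 (31B), 4.41 (33A) and 1.95 (35A). The KD SH libraries lay between 3.87 and 8.04 CPM with a median of 6.03, so every KD SH library stood above every WT SH library, also among the 17 libraries used by the study, where 0.514% of genes were lower in WT SH in this way. In KD EE the values were 5.13 CPM (7), 5.54 (8), 4.16 (9), 4.60 (32A) and 4.33 (36A). Over the 22 libraries 0.189% of the 18482 genes tested were lower in every WT SH library than in every KD SH library, and Hbb-bt was the 1 member of the 5 among them. Since the members were chosen with these levels known, nothing is read from that count.

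Alas2 lay between 1.45 and 1.88 CPM in WT SH, with a median of 1.68. Its WT EE values were 2.94 CPM (16), 3.90 (17), 1.63 (31B), 1.81 (33A) and 1.89 (35A). Libraries 16 and 17 were again the highest of their group, but library 35A, the lowest for every globin, was not the lowest for Alas2. In KD SH it lay between 1.34 and 2.93 CPM with a median of 1.61, and in KD EE it was 1.99 CPM (7), 2.59 (8), 0.767 (9), 1.79 (32A) and 2.23 (36A). The value of library 9 rested on 7 counts.

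**Figure D2:**
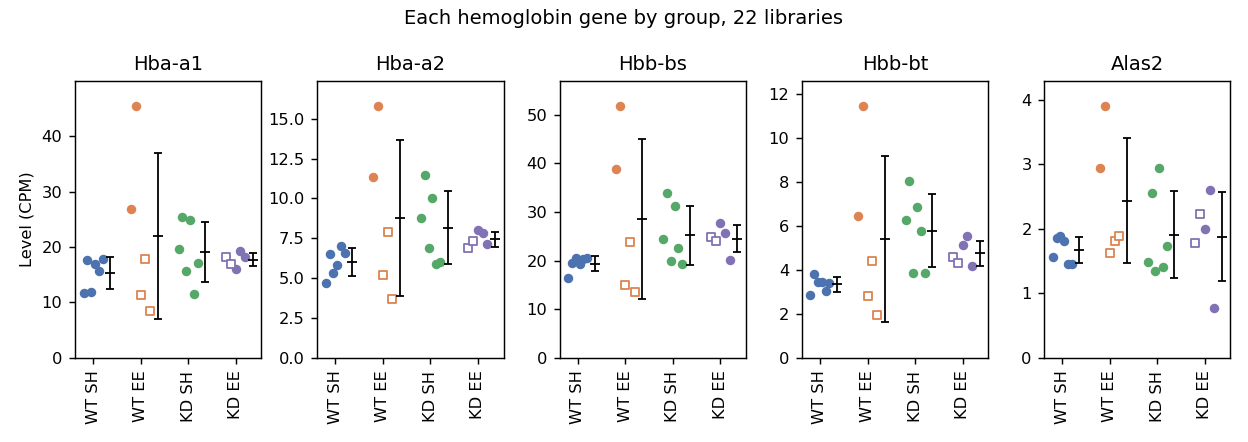
Each panel gives the level of 1 gene (CPM, linear axis from 0) in the 22 libraries by group, with filled circles for codes without a letter, open squares for codes with a letter, and a black bar for the mean and SD. In all 5 panels the 2 WT EE circles (libraries 16 and 17) lie above the 3 WT EE squares, and the KD EE circles and squares are mixed.

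Among the enriched WT libraries the 2 without a letter held 83.6 and 124.4 CPM of globin RNA and the 3 with a letter held 27.5 to 54.0 CPM. In the enriched KD mice the ranges were 49.6 to 58.2 CPM without a letter and 52.7 to 54.6 CPM with one. What the letter stands for is not given in the labels, and since no SH library carries one, it could be compared within the enriched groups alone.

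The question put by the housing comparison is what enrichment changes in the hippocampus of each genotype, and edgeR's quasi-likelihood test over all genes gave the fold changes of the members. Across the 22 libraries the log2 fold change of WT EE against WT SH was 0.51 ± 0.28 (SE) for Hba-a1, 0.53 ± 0.25 for Hba-a2, 0.55 ± 0.24 for Hbb-bs, 0.67 ± 0.29 for Hbb-bt and 0.52 ± 0.25 for Alas2. None of the 5 genes was called at an adjusted p of 0.05 and an absolute log2 fold change of 0.38, and neither was any other of the 18482 genes (0% called), although 1598 genes had an unadjusted p below 0.05 and DESeq2 called 18 genes, no member among them. Without library 17 the fold changes of the 4 globins fell to between 0.06 and 0.22.

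Over the 17 libraries used by the study, which hold 16, 17 and 33A as the WT EE group, the log2 fold changes of WT EE against WT SH were 0.90 ± 0.22 (SE) for Hba-a1, 0.91 ± 0.19 for Hba-a2, 0.98 ± 0.17 for Hbb-bs and 1.14 ± 0.23 for Hbb-bt. All 4 were called, beside 3.55% of the 18701 genes tested that were called and 3.48% that were called as higher, and Alas2, at 0.80 ± 0.25, was not called. Every one of the 3 WT EE libraries lay above every one of the 5 WT SH libraries for the 4 globins, as was the case for 8.20% of genes. The WT EE libraries lowest in globin RNA, 31B and 35A at 34.4 and 27.5 CPM, were those left out of this set. The median log2 fold change over all genes was -0.00 in this fit and 0.01 in that of the 22 libraries. With the lettered libraries left out, 16 and 17 alone stood for WT EE, and the 4 globins were called at 1.18 to 1.42 beside 1.64% of 19153 genes called and 1.55% called as higher. The choice of members used this contrast, so nothing is read from these counts.

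For KD EE against KD SH the log2 fold changes over 22 libraries were -0.10 ± 0.28 (SE) for Hba-a1, -0.13 ± 0.25 for Hba-a2, -0.03 ± 0.24 for Hbb-bs, -0.27 ± 0.29 for Hbb-bt and 0.03 ± 0.26 for Alas2. No member was called in edgeR or DESeq2, beside 0% of genes called in edgeR, 1779 genes with an unadjusted p below 0.05 and 3 genes called in DESeq2. Over the 17 libraries no member was called either, where 1.74% of genes were called and 1.64% called as higher, and the 4 globins lay between -0.11 and 0.12. All of these differences were smaller than their standard error, except that of Alas2 over the 17 libraries, 0.26 ± 0.24.

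For WT SH against KD SH all 5 fold changes were negative, -0.32 ± 0.27 (SE) for Hba-a1, -0.45 ± 0.24 for Hba-a2, -0.38 ± 0.23 for Hbb-bs, -0.79 ± 0.28 for Hbb-bt and -0.21 ± 0.24 for Alas2. None was called, beside 0% of genes in edgeR, 1065 genes with an unadjusted p below 0.05 and 2 genes called in DESeq2, neither of them a member. For WT EE against KD EE the fold changes lay between 0.15 ± 0.31 for Hbb-bt and 0.28 ± 0.29 for Hba-a1 with none called, beside 0% of genes in edgeR, 482 genes with an unadjusted p below 0.05 and no gene in DESeq2. Over 17 libraries that contrast gave 0.75 ± 0.23 for Hba-a1 and 0.57 ± 0.18 for Hbb-bs, again with no member called and 0.00535% of genes called.

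The difference between the 2 housing effects, WT minus KD, was 0.61 ± 0.40 (SE, log2) for Hba-a1, 0.67 ± 0.35 for Hba-a2, 0.58 ± 0.33 for Hbb-bs, 0.94 ± 0.41 for Hbb-bt and 0.50 ± 0.36 for Alas2. No member was called for this difference over the 22 libraries, beside 0% of genes in edgeR, 377 genes with an unadjusted p below 0.05 and no gene in DESeq2. The 2 housing contrasts use different mice, whereas each housing contrast shares its SH or EE libraries with the genotype contrasts.

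**Figure D3:**
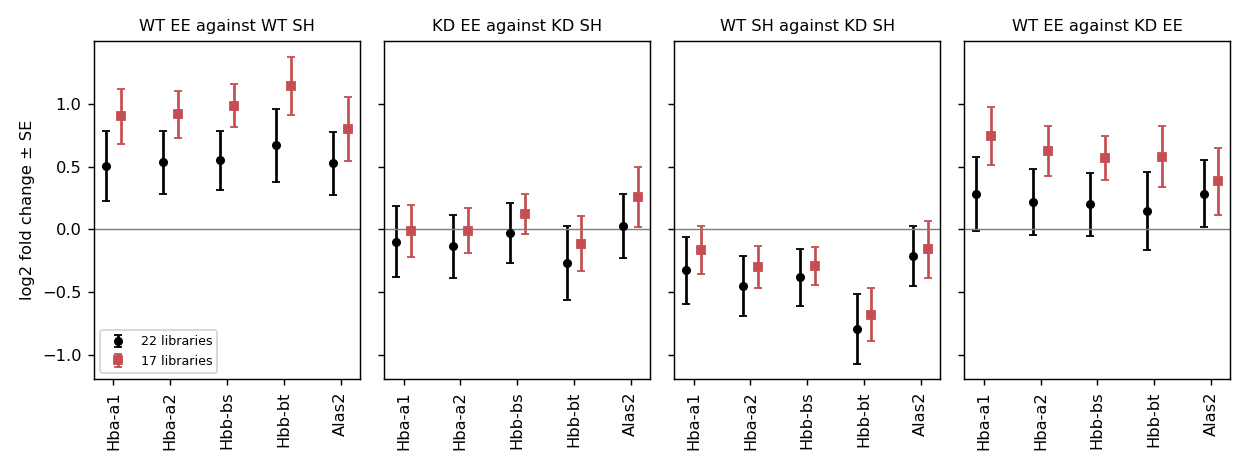
Points give the log2 fold change of each gene in 4 comparisons with its standard error, in black for 22 libraries and in red squares for the 17 used by the study. In WT EE against WT SH the 17 libraries give 0.80 to 1.14 and the 22 libraries 0.51 to 0.67, and in KD EE against KD SH both sets lie near 0.

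The composition of the globin counts within a library was compared next, since a share within the 4 genes does not move with their total. Alpha counts (Hba-a1 plus Hba-a2) made up 47.1% ± 3.25 (SD, n = 22) of the globin counts, from 38.2% in library 5 to 51.1% in library 11. Hba-a2 made up 29.4% ± 2.29 of the alpha counts. The balance between the chains varied little beside a total that ranged from 27.5 to 124.4 CPM, and in the 4 comparisons between groups the differences of both shares lay between -1.75 and 1.53 percentage points. The shares are built from the counts by which the members were chosen, so they too are a description with no test.

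Hbb-bt made up between 13.1 and 16.4% of the beta counts in WT SH with a median of 14.7%, and between 16.3 and 20.5% in KD SH with a median of 18.6%. The groups touched at their edges, where the highest WT SH library, 11, was at 16.4% (95% Wilson interval 13.5 to 19.7) and the lowest KD SH library, 3, at 16.3% (14.4 to 18.4). The WT SH mean was 14.7% ± 1.07 (SD, n = 6). That of KD SH was 18.5% ± 1.79 (SD, n = 6), and WT SH minus KD SH came to -3.78 percentage points. Leaving out any 1 library gave -4.22 to -3.39 points.

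The WT EE libraries held 14.2% (16), 18.1% (17), 15.8% (31B), 15.6% (33A) and 12.6% (35A) Hbb-bt, and the KD EE libraries 15.6% (7), 17.8% (8), 17.1% (9), 15.6% (32A) and 15.3% (36A). These 2 groups overlapped, and their means differed by -1.01 percentage points (WT EE minus KD EE). KD EE minus KD SH came to -2.23 points and WT EE minus WT SH to 0.55 points, and in both the ranges of the groups overlapped.

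**Figure D4:**
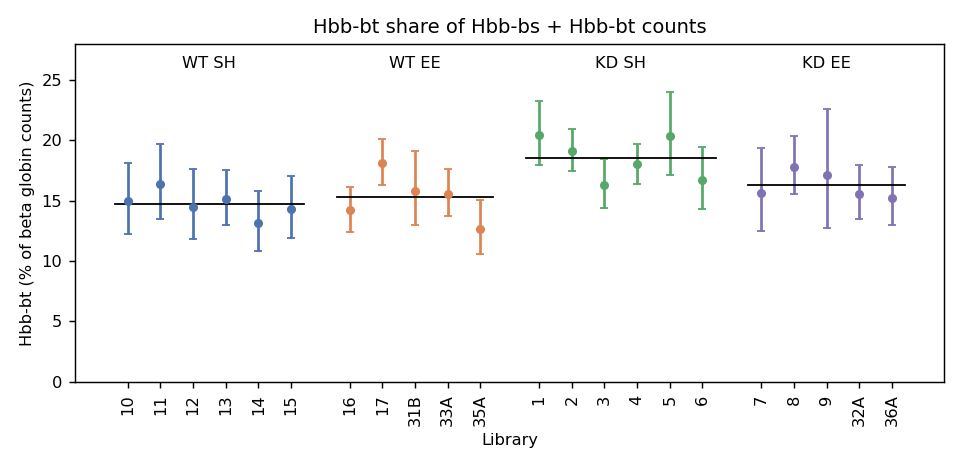
Points give the counts of Hbb-bt as a percent of the counts of Hbb-bs plus Hbb-bt in each of the 22 libraries, with 95% Wilson intervals that cover counting error only, and black lines give the group means. The KD SH mean is 18.5% against 14.7% in WT SH. The intervals of some libraries overlap between these groups, while others do not, such as 14 (WT SH, 10.9 to 15.8%) and 1 (KD SH, 17.9 to 23.2%).

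Log2 levels of the 4 globins followed each other across the 22 libraries, with Pearson r between 0.85 (Hba-a1 and Hbb-bt) and 0.95 (Hba-a2 and Hbb-bs). Alas2 followed them less closely, with r between 0.56 (Hbb-bt) and 0.69 (Hbb-bs). After centring each group on its mean the 6 globin pairs gave r between 0.88 and 0.96. This r pools groups of unlike spread, from an SD of the globin total of 3.43 CPM in KD EE to 39.8 CPM in WT EE. It therefore does not show the relation in each group. In KD EE, library 7 held the lowest Hba-a1 (16.1 CPM) and the highest Hbb-bs (27.7 CPM). There were 3.68 ± 1.03 (SD, n = 22) Alas2 counts per 100 globin counts, from 1.55 in library 9 to 6.88 in library 35A. The points of these correlations share libraries and depth.

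Among the 18482 genes tested, the 10 outside the members whose log2 level had the highest Pearson r with the log2 globin total over the 22 libraries were Lrrc74b (0.82), Catip (0.82), Rnaset2a (0.81), Gstt2 (0.81), Ttc25 (0.81), Vtn (0.80), Ctsb (0.80), Lrrc23 (0.80), Odc1 (0.80) and Dhrs7 (0.80). The 4 globins, which make up the total, gave 0.94 to 0.98 and Alas2 gave 0.64, at rank 237. Vtn encodes vitronectin, an adhesion protein made by pericytes in the brain, Ctsb the lysosomal protease cathepsin B and Odc1 ornithine decarboxylase. The functions of the other genes are not given here, and what the 10 have in common was not tested. Vtn was the 1 gene of the mural cell list called in WT EE against WT SH over the 17 libraries, at a log2 fold change of 0.43 ± 0.09 (SE, edgeR). No red cell gene other than the members stood among the 10.

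Other genes of red cells were looked at through a list of 21, of which 19 were in the files and 17 had a count. Only 3 passed the filter, Tmem56, Aqp9 and Ermap, and the other 16 in the files together held 568 counts over the 22 libraries, with 8 (library 9) to 63 (library 2) in each. Slc4a1, the anion exchanger of the red cell membrane, held 63 counts against 39147 for the globins, or 621 globin counts for each. Klf1, the red cell transcription factor, held 149 counts. Both genes were singled out after their values had been seen. Cldn13 and Icam4 were at 0 in every library, where 3 counts in the pooled libraries would be 0.00417 CPM. The defining membrane genes of red cells were therefore near the lower limit of the data in every group, so the reading of the globin counts as blood could not be checked through them.

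The summed level of the red cell list lay between 57.5 and 69.3 CPM in WT SH, 49.8 and 62.0 in WT EE, 55.5 and 78.8 in KD SH and 58.0 and 64.1 in KD EE. Tmem56 alone made up 47.1 to 76.0 CPM, so the sum is mostly that of 1 gene. None of the 3 tested genes was called in any comparison of the 22 or 17 libraries. For this and the lists below, 0% of the 18482 genes were called in any edgeR comparison of the 22 libraries. A list with none called there is therefore not set apart from other genes. Over the 17 libraries 3.55% of 18701 genes were called in WT EE against WT SH and 1.74% in KD EE against KD SH. Ermap, an adhesion protein of red cells, was lower in WT EE than in WT SH at -0.84 ± 0.27 (SE, log2, edgeR adjusted p = 0.401), a difference that failed the correction. Its level was low, 0.230 to 1.04 CPM with 425 counts over the 22 libraries, and it was named after its value was seen.

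Genes that both red cells and brain cells use, a list of 20 with 19 tested, showed no called gene in the 22 or 17 libraries. Among its most abundant members were Add2 and Sptb, which belong to the membrane skeleton. The median log2 fold change of the list in WT EE against WT SH was 0.02 over 22 libraries, beside 0.01 over all genes.

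Heme synthesis was covered by 12 genes, all tested and none called in the 22 or 17 libraries. Alas1, the form of the first enzyme used outside red cells, lay between 49.2 and 62.8 CPM, and Fech, which inserts iron into heme, between 55.4 and 69.3 CPM. Their ranges across the 22 libraries were narrow beside the globin total, whose highest value was 4.52 times its lowest. The median log2 fold change of the list was 0.01 in WT EE against WT SH and -0.01 in KD EE against KD SH. Heme use and loss, with 11 of 13 genes tested and none called, gave medians of 0.13 and -0.00, and the heme oxygenase Hmox1 lay between 3.67 and 6.27 CPM.

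Of the other globins, the embryonic genes Hba-x, Hbb-bh1 and Hbb-bh0 were at 0 in all 22 libraries, and Hbb-y and Hbb-bh2 held 9 and 2 counts in all. The theta globin genes Hbq1a and Hbq1b, which lie in the alpha cluster, held 273 and 246 counts over the 22 libraries, and Hba-ps4, an alpha pseudogene named after its value was seen, held 191. The globins of nerve and connective tissue cells were at their own levels, Ngb (neuroglobin) between 1.68 and 4.13 CPM and Cygb (cytoglobin) between 40.3 and 62.9 CPM. None of the 5 tested genes of this list was called in any comparison. The globin RNA was thus that of the adult genes.

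Other parts of blood were measured as well. Of 19 white cell genes 4 passed the filter over 22 libraries, and the sum of the list lay between 12.5 and 17.4 CPM in WT SH, 13.5 and 21.7 in WT EE, 15.9 and 21.3 in KD SH and 10.9 and 28.4 in KD EE, of which the immunoglobulin gene Ighm gave 8.70 to 22.2 CPM. The neutrophil genes S100a8 and S100a9 held 85 and 115 counts in all, and Cd3e of T cells 35. Of 10 platelet genes 6 passed the filter, with sums of 11.02 to 15.03 CPM in WT SH, 11.01 to 15.5 in WT EE, 8.21 to 13.01 in KD SH and 9.97 to 15.1 in KD EE, while Ppbp held 49 counts and Gp6 held 8. Gp1bb alone gave 3.62 to 8.08 CPM of these sums, whereas Pf4 gave 0.130 to 0.743 CPM. No gene of either list was called in the 22 or 17 libraries. The lists for endothelium, 15 of 15 genes tested, and mural cells, 10 of 11, held no called gene over 22 libraries, where 0% of all genes were called.

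Markers of choroid plexus and meninges, tissues that border the hippocampus, were measured next. In KD EE the choroid plexus sum ran from 226 to 5959 CPM while the globin total stayed between 49.6 and 58.2 CPM. The choroid plexus list (15 of 15 genes tested, none of them at 0 in any library) summed to between 68.9 and 1958 CPM in WT SH, 67.1 and 5553 in WT EE, 47.9 and 3068 in KD SH and 226 and 5959 in KD EE. The meninges list (11 of 11 tested) summed to between 128 and 253 CPM in WT SH, 107 and 424 in WT EE, 105 and 276 in KD SH and 121 and 360 in KD EE. Over the 17 libraries, in WT EE against WT SH, 15 of 15 choroid plexus genes and 9 of 11 meninges genes were called as higher, with medians of 4.29 and 1.02, and in KD EE against KD SH 15 of 15 and 3 of 11, with medians of 4.13 and 0.70. The choroid plexus genes were thus higher in EE in both genotypes in that set, which the study had picked on correlation within groups. For the 4 globins the difference between the 2 housing effects, WT minus KD, was 0.86 to 1.26 (log2) over the 17 libraries. In edgeR 0 genes were called for this difference, and 1031 had an unadjusted p below 0.05.

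Across the 22 libraries the log2 globin total followed the choroid plexus score, an average of log2 CPM over its genes, with Pearson r = 0.59 and Spearman rho = 0.65. Without the 2 libraries farthest from the median score r was 0.66, over the 17 libraries without a letter 0.66, after centring by group 0.66, and over the 17 libraries of the study 0.56. The relation to the meninges score was r = 0.58 and rho = 0.52, with 0.30 without the 2 farthest libraries, 0.72 without lettered libraries, 0.60 after centring by group and 0.70 over the 17 libraries of the study. These values are a description with no p, and they come from a family of 14 measures over the same libraries. Libraries with the same score could differ in globins, as 17, 16, 36A and 33A, with scores of 5.48, 5.77, 5.95 and 5.99, held 124.4, 83.6, 52.7 and 54.0 CPM. Of the libraries that the study left out, the enriched ones had scores of 0.38 (31B), 0.49 (35A) and 1.67 (9). Those from standard housing had 4.39 (12) and 5.02 (2).

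With the choroid plexus score as a covariate over the 22 libraries the log2 fold changes of WT EE against WT SH were 0.06 to 0.18 for the 4 globins and 0.25 for Alas2, and no gene of 18482 was called in edgeR (1445 at an unadjusted p below 0.05). In KD EE against KD SH they were -0.75 to -0.45 for the globins, and in WT SH against KD SH Hbb-bt stayed at -0.78 ± 0.22 (SE). In the 17 libraries the same covariate left the globins of WT EE against WT SH at 0.57 to 1.13 with standard errors of 0.38 to 0.53, and no gene of 18701 was called (713 at an unadjusted p below 0.05). Among the 17 libraries the WT EE scores were 5.48 (17), 5.77 (16) and 5.99 (33A), against 0.39 (15) to 3.29 (11) in WT SH. Housing and choroid plexus content therefore cannot be told apart in that fit, and no meninges score was used as a covariate. The part of choroid plexus and meninges in the globin levels was not tested.

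The remaining scores gave r = 0.55 for heme synthesis, 0.60 for heme use and loss, 0.62 for genes of red cells and brain, 0.46 for mural cells, 0.45 for endothelium, 0.44 for platelets, 0.48 for white cells, 0.16 for other globins and -0.09 for the red cell list. The score of the red cell list rests on its 3 tested genes alone. Its r was -0.51 without lettered libraries, -0.36 over the 17 libraries of the study and 0.09 after centring by group. The log10 of the counts on genes gave r = -0.07 and the mitochondrial share r = 0.02, so the globin total did not follow depth. The share of read pairs outside single genes gave r = -0.48, and -0.25 without the 2 farthest libraries.

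**Figure D5:**
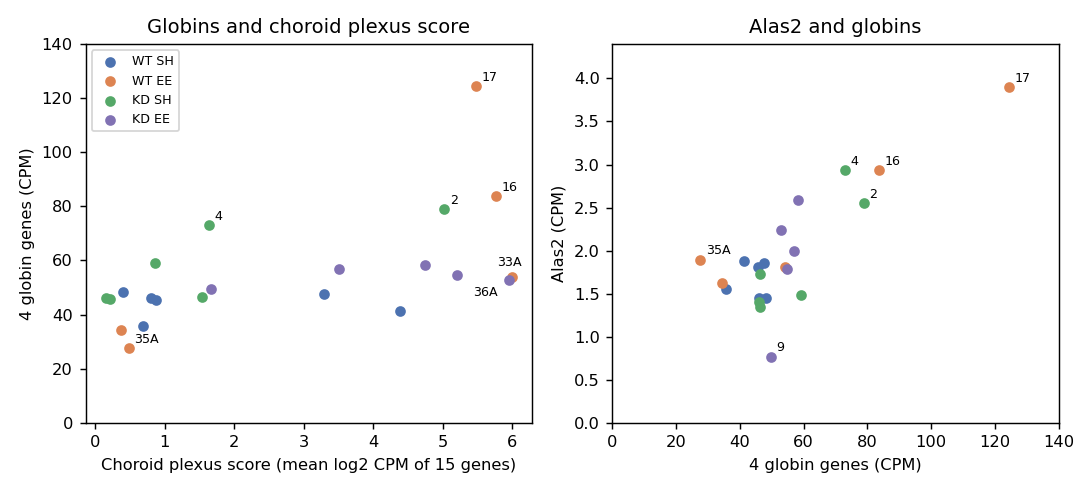
The left panel sets the summed globin level (CPM) against the choroid plexus score of each of the 22 libraries, and the right panel sets Alas2 (CPM) against the summed globins, with colours for the 4 groups and codes beside some points. Libraries 17 and 16 hold the most globin RNA and the most Alas2, and at scores near 6 the globins range from 52.7 to 83.6 CPM.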

How the data were processed

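Whole hippocampus RNA (poly-A selected, paired 150-base reads) was measured in 24 libraries, 22 of which were used. Per the labels and the study's methods, the authors used Skewer for trimming, STAR 2.5 for alignment (genome GRCm38) and HTSeq for unstranded counting of reads that aligned to 1 place, and deposited raw counts for each library. HTSeq's summary lines were kept out of library sizes and tests. They held 14.05 to 18.6% of read pairs in the 22 libraries, and 54.1% and 56.0% in 33B and 34B, which were left out. A further deposited table of normalized values was not used.

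Levels are CPM on library sizes scaled by TMM, while floors of 3 counts, depths and pooled CPM use unscaled totals. Genes were filtered with filterByExpr and fitted in the 4 groups with edgeR 4.0.16 (R 4.3.3, quasi-likelihood test, Benjamini-Hochberg adjustment), and a call needed an adjusted p of at most 0.05 and an absolute log2 fold change of at least 0.38. DESeq2 1.42.0 was an alternative. The test was checked on simulated data. Shares of counts within a library were computed in Python 3.11.15, with Wilson intervals at 95% (SciPy 1.17.1) that cover counting error only. Permutation tests planned for the shares and relations are not reported, because both are built from the counts by which the members were chosen. Figures were drawn with matplotlib 3.10.9. Nothing in the labels says whether libraries of a group came from separate litters or cages, so p-values measure the spread between these libraries. Whether animals were perfused is not given in the sources used here.

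The members and lists were chosen with earlier results of these data known. Genes named were the members, of each list the called genes (up to 5 in each direction) or else the 3 most abundant tested, and the 10 genes most like the globin total. Other genes named, among them Slc4a1, Klf1, Ermap, Hmox1, blood genes with few counts, the embryonic globins and the tissue markers, were named after their values were seen. Alternatives were the 17 libraries of the study, all 24, no lettered libraries, DESeq2, its size factors, other filters, only the groups compared, the choroid plexus score as covariate, CPM without TMM, another pseudocount, a log ratio in place of a share, and each library left out. Some items are not reported here.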

Additional observations from a re-analysis of the deposited data

Results flagged for a closer look

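In 40 groups of 5 or 6 libraries, over the 5 genes, their total, the 3 shares and the Alas2 ratio, the highest and lowest library were compared with the others by Dixon's ratio, and 2 stood apart. Chance flags about 1 in 20 groups. Library 10 of WT SH held 16.4 CPM of Hbb-bs, below the others of its group, which reached 20.5 CPM (Dixon ratio 0.702, n = 6). Library 5 of KD SH had 38.2% alpha counts among its globin counts, the lowest share of the 22 libraries (Dixon ratio 0.731, n = 6).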

How the results depend on the processing

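No paired analysis was possible because the library codes are not shared between groups. No called result changed direction, while differences near 0 changed sign when 1 library was left out. Of the 5 genes none was called in WT EE against WT SH over 22 libraries, and 4 were called over the 17 libraries of the study and 4 without lettered libraries. In the same contrast the 17 libraries gave 15 choroid plexus, 9 meninges and 1 mural cell gene called, and the set without lettered libraries 2, 8 and 1, against 0 each over 22. In KD EE against KD SH the 17 libraries gave 15 choroid plexus and 3 meninges genes.

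The log2 difference of the globin total between WT EE and WT SH was 1.202 without lettered libraries, and that between WT EE and KD EE 0.88. With all 24 libraries, where 34B holds 0 globin counts, KD EE minus KD SH was -1.03 and WT EE minus KD EE 0.91. Leaving out 1 library at a time gave 0.06 (without 17) to 0.59 (without 35A) for WT EE against WT SH, -0.12 to 0.03 for KD EE against KD SH, -0.43 to -0.27 for WT SH against KD SH and -0.25 (without 17) to 0.28 (without 35A) for WT EE against KD EE. The Hbb-bt share difference between WT SH and KD SH ranged from -4.22 to -3.39 percentage points in the same way.

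For the relations of the globin total, r without the 2 farthest libraries was 0.52 for red cell and brain genes, 0.52 for heme synthesis, 0.29 for heme use and loss and 0.30 for meninges. Without lettered libraries heme synthesis gave 0.51. Centred by group, platelets gave 0.57, white cells 0.48 and the share outside single genes -0.65, and over the 17 libraries white cells gave 0.60 and endothelium 0.56. The cause of these changes was not tested. Depth limits Alas2 in library 9, which rests on 7 counts.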
